A study of Mus musculus with 34 samples.

Results

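The 10 apolipoprotein genes Apoa1, Apoa2, Apoa4, Apoa5, Apob, Apoc1, Apoc2, Apoc3, Apoe and Apom were examined in livers of mice given a guide RNA against 1 of 5 genes. They were chosen by symbol, as 10 of the 35976 symbols in the deposited table, and all 10 passed the filter on low values. Total RNA of 34 livers was sequenced, 28 of them labelled knockout (KO) and 6 control. The 5 knockout groups were Bcl6 KO (5 livers), Irs1 KO (5), Smyd2 KO (6), Srebf1 KO (5) and Tbx3 KO (7), and the control group pooled livers given sgGFP (4) and sgLacZ (2), guides against sequences that mice do not carry. All 34 mice, controls included, were C57BL/6 animals homozygous for both TetO-Cas9, a Cas9 gene under a tetracycline-responsive promoter, and Rosa-rtTA, the transactivator that switches it on. All had received an AAV vector with the guide and were fed a Western diet, rich in fat and sugar, for 3 months. Whole liver was sampled, so uncut cells and cells other than hepatocytes contributed RNA. Neither the share of cut cells nor the sex or age of the mice is stated in the labels. The labels number the livers within a group, and if some came from 1 animal, the p-values reflect the spread between samples alone.

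Apolipoproteins are the protein part of the particles that carry lipid in blood, and the liver makes most of them. ApoB holds together the very low density particles (VLDL) that export triglyceride from the hepatocyte, while apoA-I and apoA-II are the main proteins of high density lipoprotein (HDL). The small exchangeable apolipoproteins move between particles and set how fast lipases digest the triglyceride and how fast receptors take up what remains.

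The deposited values imply 2110000 to 3120000 counted reads in a library (median 2600000). Of the targeted genes, Srebf1 had lower mRNA in 4 livers labelled Srebf1 KO (499 to 632 FPKM), against 1095 to 2177 FPKM in control livers. The library labelled Srebf1 KO replicate 1 had 1908 FPKM, within the control range, so its Srebf1 mRNA does not bear out its label. Whether that liver was uncut or the label is wrong was not tested. Knockout and control ranges of the other 4 targeted mRNAs overlapped, and a cut gene can still be transcribed. All 14 hepatocyte markers examined passed the filter on low values, and none was at 0 in every library. Apolipoproteins are also made by the intestine. Of 6 enterocyte markers, Alpi was at 0 in every library, and Vil1, Cdh17, Sis and Lct averaged under 1 FPKM in every group. The sixth, Fabp2, a fatty acid binding protein, stood at 237 to 586 FPKM in knockout livers, against 291 to 457 FPKM in control livers, and was called in no knockout.

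Levels are given in FPKM, a read count per length of transcript and per total of the library, so genes can be set beside each other, though the transcript lengths used for genes with several transcripts are not given. In control livers Apoe was the most abundant of the 10 at 61405 ± 9143 FPKM, followed by Apoa2 at 15698 ± 4957, Apob at 8518 ± 981 and Apoa1 at 6461 ± 862 FPKM (SD, n = 6 livers). Apoc1 averaged 5609 ± 2135, Apoa4 3322 ± 886 and Apoc3 3005 ± 715 FPKM in the same livers, and Apoc2 averaged 1273 ± 171, Apoa5 1024 ± 189 and Apom 87.6 ± 15.5 FPKM. The ranges of neighbours in this order overlapped, except between Apoe and Apoa2, Apoc3 and Apoc2, and Apoa5 and Apom. Over all 34 livers Apoe ranked 1 among all symbols by mean FPKM and was the highest symbol in 24 livers, while Apom ranked 3689. Together the 10 genes held 4.15% ± 0.0867 of the summed FPKM in Bcl6 KO livers, 4.02% ± 0.277 in Irs1 KO, 4.15% ± 0.505 in Smyd2 KO, 4.67% ± 0.309 in Srebf1 KO and 4.10% ± 0.357 in Tbx3 KO livers, against 3.66% ± 0.474 in control livers (SD). Apob varied least between livers of a group (SD 0.12 on the log2 scale), and Apom (0.37) and Apoa4 (0.36) varied most.

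**Figure D1:**
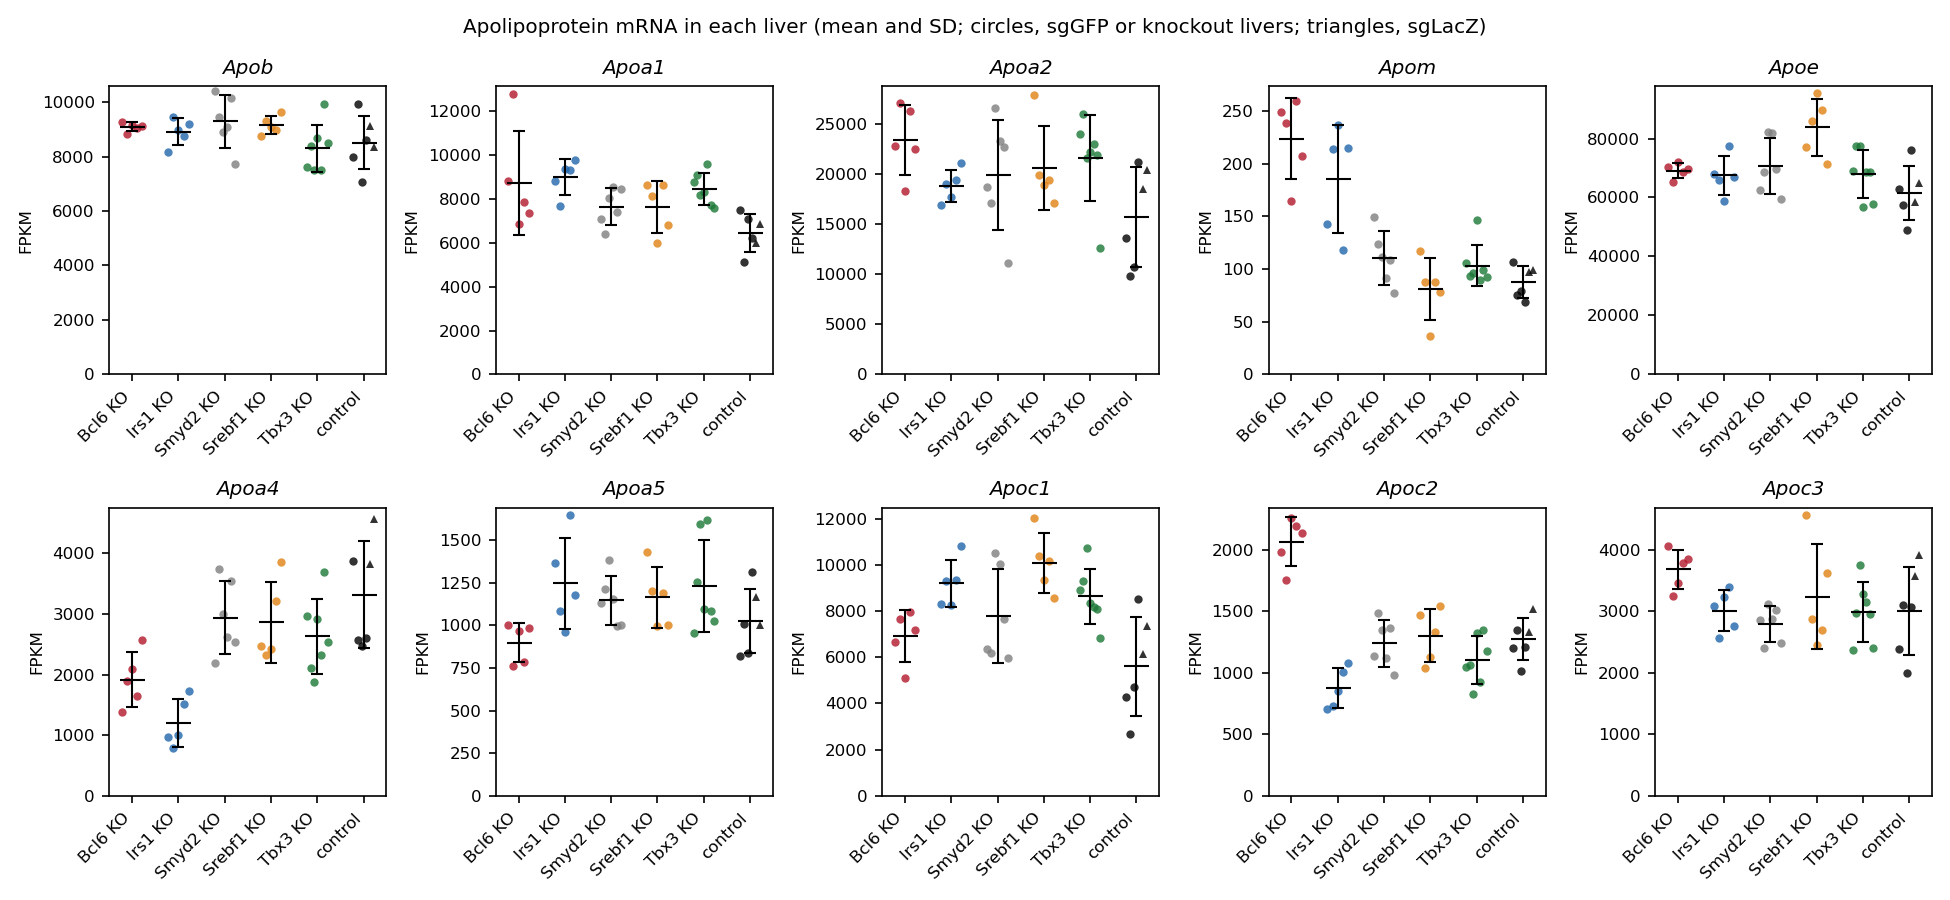
FPKM of each of the 10 genes in each of the 34 livers, 1 panel a gene, with the mean and SD of each group and sgLacZ controls as triangles. Apom stood at 165 to 259.8 FPKM in Bcl6 KO livers against 68.4 to 107 FPKM in control livers, and Apoa4 at 782 to 1734 FPKM in Irs1 KO livers against 2475 to 4570 FPKM in control livers.

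Each knockout group was compared with the same 6 control livers, so the 5 comparisons are not independent. The test was limma on log2(FPKM + 1) over 19295 genes, with p adjusted by the Benjamini-Hochberg method and called under 0.05. Of 50 member comparisons, 11 were called, 8 higher and 3 lower in the knockout, and these fell on 5 genes. In Bcl6 KO livers 4 of 10 were called (Apoa1, Apoc2 and Apom higher, Apoa4 lower), where 6.14% of all genes tested were called, 2.95% higher and 3.19% lower. In Irs1 KO livers 5 of 10 were called (Apoa1, Apoc1 and Apom higher, Apoa4 and Apoc2 lower), against 10.9% of all genes, 3.24% higher and 7.61% lower. Livers labelled Srebf1 KO had Apoc1 called higher, where 0.378% of all genes were called, 0.197% higher and 0.181% lower. Tbx3 KO livers also had Apoc1 called higher, where 2.54% of all genes were called, 1.17% higher and 1.37% lower. In Smyd2 KO livers limma called 0 of the 10 genes and 0% of all genes. At an unadjusted p under 0.05 in Smyd2 KO there were 2 members, Apoa1 and Apoc1, and 7.17% of all genes. Among the 4423 genes with a mean of at least 100 FPKM over all 34 livers, 12.4% were called in Bcl6 KO and 17.8% in Irs1 KO. The share was 0% in Smyd2 KO, 0.837% in Srebf1 KO and 5.36% in Tbx3 KO. All 10 members had such a mean, but Apom, at 128 FPKM, averaged 87.6 FPKM in control livers. It averaged 224 FPKM in Bcl6 KO and 185 FPKM in Irs1 KO livers, so this share is not matched to its control level. Ranges that do not overlap the control range occurred for 2 members in Bcl6 KO (4.27% of all genes), 3 in Irs1 KO (7.45%), 0 in Smyd2 KO (0.347%), 1 in Srebf1 KO (1.95%) and 1 in Tbx3 KO (0.829%).

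**Figure D2:**
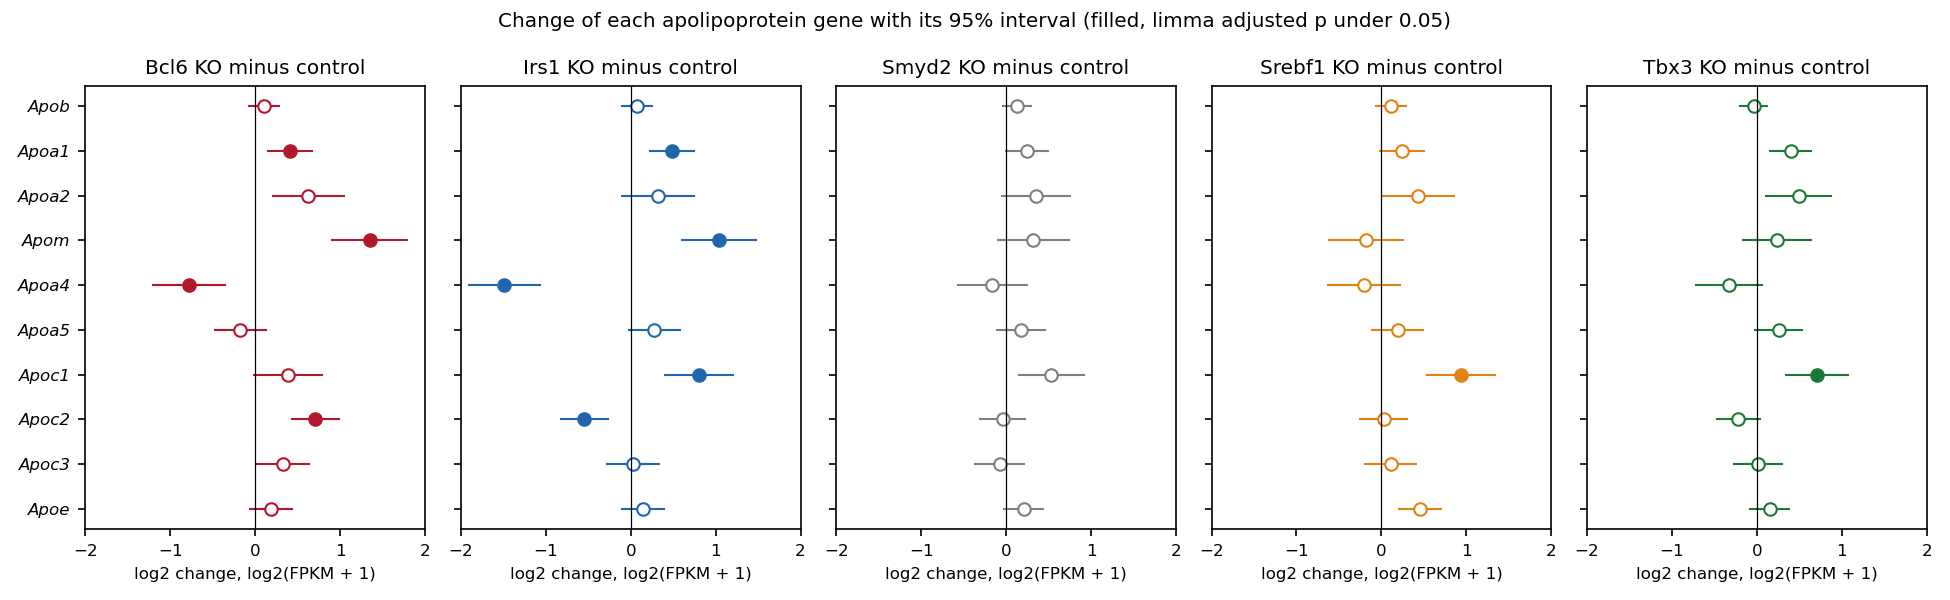
Change of each gene against control on the log2(FPKM + 1) scale with its 95% interval, 1 panel a knockout, filled where the limma adjusted p was under 0.05. Filled points number 4 in Bcl6 KO, 5 in Irs1 KO, 0 in Smyd2 KO, 1 in Srebf1 KO and 1 in Tbx3 KO, and Apom in Bcl6 KO (1.34) and Apoa4 in Irs1 KO (-1.49) lie farthest from 0.

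The median change of the 10 genes was 0.35 in Bcl6 KO, 0.21 in Irs1 KO, 0.19 in Smyd2 KO, 0.15 in Srebf1 KO and 0.19 in Tbx3 KO on the log2 scale, where the median of all genes was -0.07, -0.12, 0, -0.05 and -0.06. Of 14 hepatocyte markers, 8 were called higher in Bcl6 KO, 10 in Irs1 KO, 0 in Smyd2 KO, 1 in Srebf1 KO and 4 in Tbx3 KO, and none lower. Of all genes tested, 2.95%, 3.24%, 0%, 0.197% and 1.17% were called higher in the same groups. The median change of these markers was 0.57, 0.68, 0.23, 0.33 and 0.38 in these groups. Their summed level was 168100 to 232800 FPKM in Bcl6 KO livers, 124000 to 146200 in Irs1 KO, 95370 to 130300 in Smyd2 KO, 113000 to 130300 in Srebf1 KO and 95150 to 118500 in Tbx3 KO livers, against 84700 to 112400 FPKM in control livers. The sums in Bcl6 KO, Irs1 KO and Srebf1 KO lay wholly above the control range. In Irs1 KO livers 6 of 10 markers of recruited macrophages, 3 of 10 of Kupffer cells and 6 of 10 of stellate cells were called lower. Also called lower there were 2 of 10 endothelial and 1 of 8 cholangiocyte markers, but 0 of the 7 lymphocyte markers tested. In Bcl6 KO livers 3 of 10 endothelial markers were called higher, and 1 of 10 stellate and 1 of 8 cholangiocyte markers lower, and in Tbx3 KO livers 3 of 10 stellate markers were called lower. Of all genes tested, 7.61% were called lower in Irs1 KO and 1.37% in Tbx3 KO, and 2.95% higher and 3.19% lower in Bcl6 KO. A count of 0 or 1 in lists this short cannot be told apart from these shares. Spp1 stands in both the recruited macrophage and the cholangiocyte list. Summed recruited macrophage markers were 320.1 to 691 FPKM in Irs1 KO livers and 983 to 3920 FPKM in control livers, and Ly6c2 was under 1 FPKM on average in Irs1 KO. Summed Kupffer cell markers were 678 to 1136 FPKM in Irs1 KO livers and 899 to 1412 in control livers, and summed stellate cell markers were 656 to 774 FPKM in Irs1 KO livers and 896 to 1868 in control livers. Summed cholangiocyte markers had a median of 425 FPKM in Irs1 KO livers and 1038 FPKM in control livers, and every Irs1 KO liver lay below the control range of 735 to 3110 FPKM. The part of these markers in the apolipoprotein values was not tested, and in whole liver fewer cells of a type and less RNA per cell cannot be told apart.

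Apoa1 and Apoa4 share a cluster on chromosome 9, and the stretches just before their annotated starts are shown because the pair was called in opposite directions in Bcl6 KO and in Irs1 KO livers. Apoc2 is shown because it was called in opposite directions in these 2 groups, with the single match to a nuclear receptor motif in capitals. The sequences are RefSeq promoter sequences of build GRCm38.p6, 5′ to 3′ on the gene's strand, at chr9:46228380-46228579 (plus strand, Apoa1), chr9:46240594-46240695 (plus strand, Apoa4) and chr7:19677942-19678191 (minus strand, Apoc2).
Apoa1: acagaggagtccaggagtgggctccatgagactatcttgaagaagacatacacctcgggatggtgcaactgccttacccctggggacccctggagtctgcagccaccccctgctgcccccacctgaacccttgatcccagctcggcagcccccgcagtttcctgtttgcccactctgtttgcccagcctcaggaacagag
Apoa4: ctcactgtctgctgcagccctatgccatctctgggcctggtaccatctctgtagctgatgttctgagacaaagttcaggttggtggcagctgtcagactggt
Apoc2: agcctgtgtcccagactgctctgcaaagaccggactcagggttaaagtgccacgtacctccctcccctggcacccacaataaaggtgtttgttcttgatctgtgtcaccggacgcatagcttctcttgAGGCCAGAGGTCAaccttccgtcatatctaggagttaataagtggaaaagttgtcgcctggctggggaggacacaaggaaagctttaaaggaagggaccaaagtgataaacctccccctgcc
The RefSeq table held 8 of the 10 members in 12 windows, and the 250 bases before each start were searched for exact letters on both strands. The capitals mark a DR1 motif, AGGNCA repeated after 1 free base, which nuclear receptors such as HNF4A are known to bind. It lies 122 to 110 bases before the Apoc2 start, a pattern found in 0.338% of 32851 windows. TATAAA was found in windows of Apoa2, Apoa5, Apob and Apoe and in 12.4% of all windows, and the 2 matches in Apoe, on opposite strands, overlapped each other. The HNF4 motif CAAAGTCCA (0.384% of windows), the HNF1 motif (GTTAAT and ATTAAC with 1 free base between them, 0.00913%), the BCL6 or STAT core TTCCNNGAA (4.06%), the sterol response motif TCACNCCAC (1.05%) and the T-box motif TCACACCT (1.12%) were found in no member's window. Such a match describes letters in a window and says nothing of binding.

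Apoa1 and Apom, both carried on HDL, were higher in Bcl6 KO and Irs1 KO livers. Apom (chromosome 17, 35128997 to 35132050, minus strand) encodes the apolipoprotein that binds sphingosine-1-phosphate. It stood at 249, 239, 165, 259.8 and 207 FPKM in Bcl6 KO livers and at 143, 214, 237, 119 and 215 FPKM in Irs1 KO livers, against a lowest value of 68.4, a median of 88.1 and a highest of 107 FPKM in control livers. Every liver of both knockout groups lay above every control liver. Apom rose by 1.34 in Bcl6 KO (SE 0.21, limma adjusted p = 5.37e-05) and by 1.04 in Irs1 KO (SE 0.21, limma adjusted p = 0.00199) on the log2 scale, and both calls held in all 20 alternatives run. It was the lowest of the 10 genes, on 91 to 690 reads a library as its FPKM and its single transcript imply. Apom averaged 110.5 ± 25.2 FPKM in Smyd2 KO (n = 6), 81.3 ± 29.2 in Srebf1 KO (n = 5) and 103 ± 19.6 FPKM in Tbx3 KO livers (n = 7), and was called in none of the 3.

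Apoa1 (chromosome 9, 46228580 to 46230466, plus strand) encodes the main HDL protein, the activator of the cholesterol-esterifying enzyme LCAT. In Irs1 KO livers it stood at 8837, 7696, 9380.0, 9347 and 9787 FPKM, against a lowest value of 5129, a median of 6530 and a highest of 7522 FPKM in control livers. All 5 Irs1 KO livers were above the control range, and the rise of 0.49 (SE 0.13, limma adjusted p = 0.0126) held in all 20 alternatives. In Bcl6 KO livers Apoa1 stood at 8803, 12778, 6865, 7858 and 7372 FPKM, so that 3 of 5 livers were above the control range and replicate 2 was the highest. Its rise of 0.41 in Bcl6 KO (SE 0.13, limma adjusted p = 0.049) held in 7 of 20 alternatives, with limma adjusted p of 0.0226 to 0.34 over them. The Bcl6 KO call ended without Bcl6 KO replicate 1 (limma adjusted p = 0.109), 2 (0.225) or 4 (0.0694), sgGFP replicate 2 (0.124) or 4 (0.0742), or sgLacZ replicate 1 (0.0907) or 2 (0.0574). Without Bcl6 KO replicate 2, the liver with 12778 FPKM, the change was 0.26. It also ended under quantile normalization (0.22, limma adjusted p = 0.34), with a pseudocount of 0.1 (0.0514), with no filter (0.0779), with the replicate block (0.0715), with sgGFP livers alone as control (0.102) and when the fit held Bcl6 KO and control livers alone (0.191).

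In Tbx3 KO livers Apoa1 had a lowest value of 7578, a median of 8343 and a highest of 9587 FPKM, all 7 above the control range, but the change of 0.40 missed the threshold (limma adjusted p = 0.0606) and passed it without Tbx3 KO replicate 7 (0.0288), under median scaling (0.0280), with the filter at 10 FPKM (0.0423) and with the replicate block (0.0398), 4 of 22 alternatives. Apoa2 (chromosome 1, 171225054 to 171226379, plus strand), the second protein of HDL, averaged 23373 ± 3497 FPKM in Bcl6 KO livers (n = 5), against 15698 ± 4957 FPKM in control livers (n = 6). Its change of 0.63 in Bcl6 KO (SE 0.21, limma adjusted p = 0.0661) was not called, and it passed the threshold without Bcl6 KO replicate 3 (0.0497), sgGFP replicate 4 (0.0316) or sgLacZ replicate 2 (0.0406), with the filter at 10 FPKM (0.0483), with the replicate block (0.0391) and with sgGFP livers alone as control (0.0272). Under quantile normalization the change was 0.26 (limma adjusted p = 0.421). Apoa2 was called in no other knockout, with changes of 0.32 in Irs1 KO, 0.35 in Smyd2 KO, 0.44 in Srebf1 KO and 0.49 in Tbx3 KO, the last of which passed without Tbx3 KO replicate 7 (limma adjusted p = 0.0308) and with the replicate block (0.0138), and was 0.22 under quantile normalization (0.468).

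Apob (chromosome 12, 7977648 to 8016835, plus strand) encodes the structural protein of VLDL, and its group means spanned 0.16 on the log2 scale, the narrowest of the 10 genes. It averaged 9090 ± 164 FPKM in Bcl6 KO, 8909 ± 494 in Irs1 KO, 9292 ± 968 in Smyd2 KO, 9151 ± 336 in Srebf1 KO and 8307 ± 868 FPKM in Tbx3 KO livers, against 8518 ± 981 FPKM in control livers (SD, n = 5, 5, 6, 5, 7 and 6). The ranges overlapped the control range in every knockout, and no change was called. The 95% intervals of the log2 change ran from -0.07 to 0.28 in Bcl6 KO, -0.10 to 0.24 in Irs1 KO, -0.04 to 0.29 in Smyd2 KO, -0.06 to 0.28 in Srebf1 KO and -0.20 to 0.13 in Tbx3 KO.

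Apoa4 (chromosome 9, 46240696 to 46243459, plus strand) encodes an apolipoprotein of triglyceride-rich particles and HDL, made in mice by both intestine and liver. In Irs1 KO livers it stood at 972, 782, 1009, 1519 and 1734 FPKM, against a lowest value of 2475, a median of 3221 and a highest of 4570 FPKM in control livers. All 5 Irs1 KO livers lay below the control range, and Apoa4 fell by 1.49 on the log2 scale (SE 0.21, limma adjusted p = 2.98e-05), a call that held in all 20 alternatives. In Bcl6 KO livers it stood at 1391, 1888, 2093, 1655 and 2572 FPKM, with 4 of 5 livers below the control range. There Apoa4 fell by 0.78 (SE 0.21, limma adjusted p = 0.0179), and the call ended without Bcl6 KO replicate 1 (0.0796), Bcl6 KO replicate 4 (0.0600) or sgLacZ replicate 2 (0.0540). It also ended with the sgGFP livers alone as control (limma adjusted p = 0.131), where the change was -0.59. The sgGFP livers had 2475 to 3880.5 FPKM of Apoa4, and the sgLacZ livers 3834 and 4570. Apoa4 averaged 2939 ± 605 FPKM in Smyd2 KO, 2861 ± 663 in Srebf1 KO and 2633 ± 617 in Tbx3 KO livers and was called in none of the 3. Apoa4 overlaps the antisense gene Gm10680 over 839 bases and Gm47528, also on the opposite strand, over 1337 bases. Since the strand setting of the counting is not given, reads of Apoa4 and of these genes may not have been separated.

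Apoc2 was called higher in Bcl6 KO and lower in Irs1 KO livers, while Apoc3 and Apoa5, whose products also act on lipoprotein lipase or triglyceride clearance, were called in neither against control. Apoc2 (chromosome 7, 19671579 to 19677941, minus strand) encodes the cofactor that lipoprotein lipase needs. It stood at 1982, 1759, 2258, 2195 and 2142 FPKM in Bcl6 KO livers and at 708, 731, 852, 1007 and 1079 FPKM in Irs1 KO livers, against a lowest value of 1016, a median of 1274 and a highest of 1522 FPKM in control livers. Every Bcl6 KO liver was above the control range, and 4 of 5 Irs1 KO livers were below it. Apoc2 rose by 0.70 in Bcl6 KO (SE 0.14, limma adjusted p = 7e-04), a call that held in all 20 alternatives. In Irs1 KO it fell by 0.55 (SE 0.14, limma adjusted p = 0.00857), and the call held in 19 of 20 alternatives. It ended when libraries were scaled to a common median (-0.32, limma adjusted p = 0.145). That scaling moved the median gene of Irs1 KO to 0.11, where it was -0.12 as deposited. Relative to the median gene Apoc2 was at -0.43 under both. Median scaling shifts all genes of a library alike, so this equality was fixed in advance and says nothing of the call.

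Apoc2 lies within the same-strand gene Gm44805, over 6358 bases, whose symbol was not in the table, so reads of the pair may not have been separated. Its neighbour Apoc4 changed by 0.15 in Bcl6 KO (limma adjusted p = 0.528) and by 0.26 in Irs1 KO (limma adjusted p = 0.119), neither called. Apoc4 was called higher in Tbx3 KO (0.36, limma adjusted p = 0.0443), and not in Smyd2 KO (0.23) or Srebf1 KO (0.38). Apoc2 averaged 1241 ± 190 FPKM in Smyd2 KO (n = 6), 1303 ± 216 in Srebf1 KO (n = 5) and 1102 ± 194 FPKM in Tbx3 KO livers (n = 7), and was called in none of them.

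Apoc1 (chromosome 7, 19689481 to 19692660, minus strand) encodes a small apolipoprotein that slows lipase action and receptor uptake. It stood at 8312, 9303, 8278, 9324 and 10801 FPKM in Irs1 KO livers, against a lowest value of 2695, a median of 5413 and a highest of 8507 FPKM in control livers, and 3 of 5 Irs1 KO livers were above the control range. The rise of 0.80 in Irs1 KO (SE 0.20, limma adjusted p = 0.0081) held in 19 of 20 alternatives and ended in a fit of Irs1 KO and control livers alone (0.0503). In livers labelled Srebf1 KO Apoc1 stood at 12018, 10398, 9337, 10177 and 8556 FPKM, all 5 above the control range and the library labelled Srebf1 KO replicate 1 the highest. It rose by 0.94 there (SE 0.20, limma adjusted p = 0.0249), and the call held in 13 of 20 alternatives. This call ended without the library labelled Srebf1 KO replicate 1 (0.0652), without Srebf1 KO replicate 2 (0.0615), 3 (0.0613) or 4 (0.0577), and without sgGFP replicate 1 (0.0795) or 3 (0.0632), with changes of 0.87 to 0.96, and in a fit of Srebf1 KO and control livers alone (0.135).

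In Tbx3 KO livers Apoc1 had a lowest value of 6850, a median of 8349 and a highest of 10723 FPKM, and 3 of 7 livers were above the control range. It rose by 0.71 in Tbx3 KO (SE 0.18, limma adjusted p = 0.0284), and the call ended without Tbx3 KO replicate 1 (0.0508), 2 (0.0596) or 3 (0.0769), or sgGFP replicate 1 (0.0828), 2 (0.0944) or 3 (0.0590). It also ended under quantile normalization (limma adjusted p = 0.0551), with array weights (0.0556) and in a fit of Tbx3 KO and control livers alone (0.166). Control livers were spread widely for Apoc1, with a coefficient of variation of 38.1% against 11.2% in Irs1 KO livers. The changes in Bcl6 KO (0.38) and Smyd2 KO (0.53) were not called.

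Apoc3 (chromosome 9, 46232933 to 46235636, minus strand), which inhibits lipoprotein lipase, and Apoa5 (chromosome 9, 46268633 to 46271919, plus strand), which promotes triglyceride clearance, were not called in any knockout against control. Apoc3 averaged 3679 ± 321 FPKM in Bcl6 KO and 3011 ± 339 FPKM in Irs1 KO livers, against 3005 ± 715 FPKM in control livers (SD, n = 5, 5 and 6). Apoa5 averaged 899 ± 116 FPKM in Bcl6 KO and 1246 ± 268 FPKM in Irs1 KO livers, against 1024 ± 189 FPKM in control livers (SD, n = 5, 5 and 6). Both overlapped the control range in every knockout. The antisense gene Gm47544 overlaps Apoa5 over 1331 bases.

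Apoe (chromosome 7, 19696109 to 19699188, minus strand) encodes the ligand by which receptors of the LDL receptor family clear remnant particles. In livers labelled Srebf1 KO it stood at 76959, 85866, 95477, 89548 and 71451 FPKM, against a lowest value of 48807, a median of 60606 and a highest of 76198 FPKM in control livers. The ranges overlapped, with 4 of 5 above, and the change of 0.46 (SE 0.12, limma adjusted p = 0.0831) was not called. It passed the threshold without sgGFP replicate 4 (0.0355), the control liver with the highest value, and with the filter at 10 FPKM (0.0399). Under quantile normalization the change was 0.21 (limma adjusted p = 0.421). Apoe averaged 69093 ± 2555 FPKM in Bcl6 KO, 67461 ± 6554 in Irs1 KO, 70716 ± 9488 in Smyd2 KO and 67972 ± 8251 FPKM in Tbx3 KO livers, against 61405 ± 9143 FPKM in control livers, and none of these was called.

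Comparing the knockouts with each other leaves the control livers out of the contrast. The limma F test over the 5 knockouts called 3 of 10 genes, Apoc2 (adjusted p = 1.17e-06), Apom (1.84e-05) and Apoa4 (6.06e-05), against 14.5% of all genes. Of 100 tests of a gene between 2 knockouts, 18 were called, 6 on Apoc2, 6 on Apom, 4 on Apoa4 and 2 on Apoa5. Between Bcl6 KO and Irs1 KO livers 3 members were called, where 11.3% of all genes were. No member was called between Smyd2 KO and Srebf1 KO, Smyd2 KO and Tbx3 KO, or Srebf1 KO and Tbx3 KO, where 0.0777%, 0.902% and 0.943% of all genes were. Apoc2 was higher in Bcl6 KO than in Irs1 KO by 1.25 (SE 0.14, limma adjusted p = 7.92e-08), with no overlap of the 2 groups, and this held in all 41 alternatives. Apoa4 was higher in Bcl6 KO than in Irs1 KO by 0.71 (SE 0.22, limma adjusted p = 0.0297), a call that ended without Bcl6 KO replicate 2 (0.0502), 3 (0.0736) or 5 (0.0923), without Irs1 KO replicate 1 (0.0806), 2 (0.108) or 3 (0.0697), and under median scaling (0.0763). Apoa5 was lower in Bcl6 KO than in Irs1 KO by 0.46 (change -0.46, limma adjusted p = 0.0499) and lower than in Tbx3 KO (-0.44, limma adjusted p = 0.0481), but each of these ended without any 1 of the 5 Bcl6 KO livers. The 2 Apoa5 calls held in 15 and 17 of 41 alternatives, with limma adjusted p up to 0.17 and 0.143.

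Apoc2 was higher in Bcl6 KO than in Smyd2 KO by 0.74, than in Srebf1 KO by 0.68 and than in Tbx3 KO by 0.92 (limma adjusted p = 0.000362, 0.00156 and 6.71e-06), and the 3 calls held in all 41 alternatives, as did those of Apom, higher by 1.03, 1.53 and 1.11 (0.0019, 1.31e-05 and 0.000399). The share of all genes called was 5.83%, 8.76% and 9.31% in these 3 contrasts of Bcl6 KO. Apoa4 was lower in Irs1 KO than in Smyd2 KO (-1.33), Srebf1 KO (-1.28) and Tbx3 KO (-1.16), with limma adjusted p of 0.000553, 0.000825 and 0.000808, each held in all 41 alternatives. In these contrasts of Irs1 KO 4.26%, 1.60% and 2.81% of all genes were called. Apom was higher in Irs1 KO than in Srebf1 KO by 1.23 (limma adjusted p = 0.00218), held in all 41 alternatives. Apom also exceeded Tbx3 KO by 0.81 (0.0258), which ended with the replicate number as a block and without Irs1 KO replicate 2 (0.0950), 3 (0.0925) or 5 (0.0740). Against Smyd2 KO its difference of 0.72 (limma adjusted p = 0.0480) held in 16 of 41 alternatives and ended without 4 of the 5 Irs1 KO livers or 5 of the 6 Smyd2 KO livers, among others (limma adjusted p up to 0.124). Apoc2 was lower in Irs1 KO than in Smyd2 KO (-0.51, limma adjusted p = 0.0292) and Srebf1 KO (-0.58, limma adjusted p = 0.0257). The first ended without Irs1 KO replicate 1 (0.104), 2 (0.0834) or 3 (0.0560) or Smyd2 KO replicate 2 (0.0749) or 5 (0.0708), and the second without Irs1 KO replicate 1 (0.0923), 2 (0.0943) or 3 (0.0598), the library labelled Srebf1 KO replicate 1 (0.0575), or Srebf1 KO replicate 4 (0.0634) or 5 (0.0997). Both of these Apoc2 calls also ended under median scaling. They held in 35 and 34 of 41 alternatives, with limma adjusted p up to 0.214 and 0.12. Apom did not pass between Bcl6 KO and Irs1 KO (0.30, 95% interval -0.15 to 0.76).

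Of the 10 genes 7 lie in 2 clusters, and in Irs1 KO livers each cluster held genes called in opposite directions. Differences in change between genes were not tested. Positions follow GENCODE M21 on GRCm38, where each of the 10 is protein-coding. On chromosome 9 Apoa1, Apoc3, Apoa4 and Apoa5 span 43.3 kb, and in Irs1 KO livers their changes were 0.49, 0.03, -1.49 and 0.28. In Bcl6 KO livers these were 0.41, 0.32, -0.78 and -0.18. On chromosome 7 Apoc2, Apoc1 and Apoe span 27.6 kb, and their changes were 0.70, 0.38 and 0.18 in Bcl6 KO and -0.55, 0.80 and 0.14 in Irs1 KO livers.

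**Figure D3:**
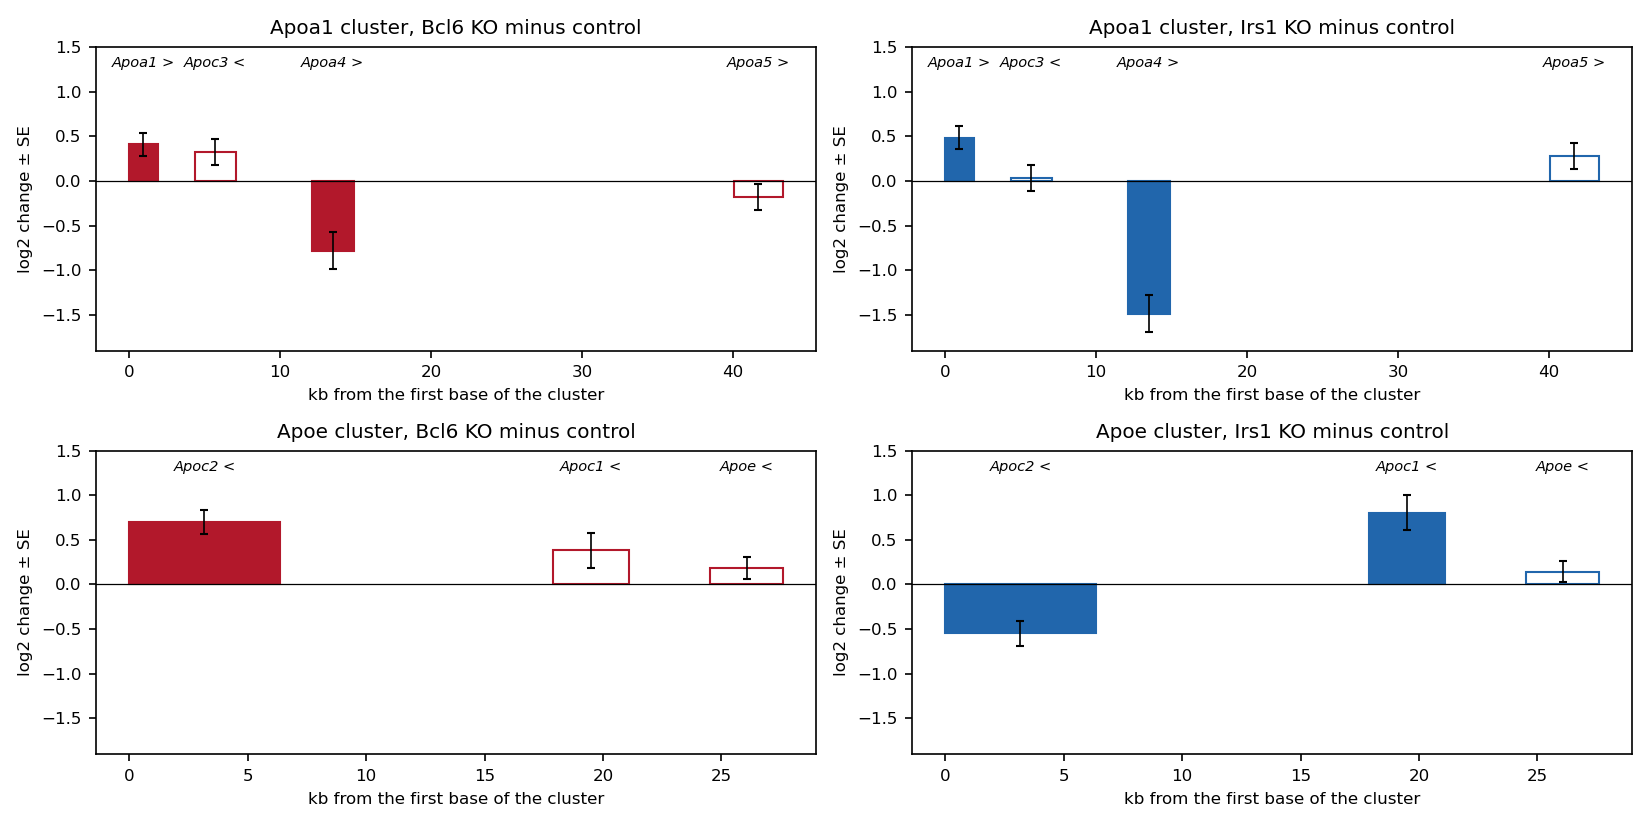
The chromosome 9 and chromosome 7 clusters drawn by distance in kb, with the log2 change of each gene in Bcl6 KO and Irs1 KO against control. Apoa4 at -1.49 and Apoa1 at 0.49 lie in the same 43.3 kb cluster in Irs1 KO livers, and Apoc2 at -0.55 and Apoc1 at 0.80 in the same 27.6 kb cluster.

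Ratios between members within a liver do not depend on the total by which a library was scaled. Apoc2 was 2.99% ± 0.217 of Apoe in Bcl6 KO livers and 1.30% ± 0.234 in Irs1 KO livers, against 2.10% ± 0.303 in control livers (SD, n = 5, 5 and 6). The Bcl6 KO livers, at 2.70% to 3.20%, lay above the control range of 1.59% to 2.36%, while 1 Irs1 KO liver, at 1.61%, reached into it. Low values were not particular to Irs1 KO, with 1.07% to 2.33% in Tbx3 KO and 1.19% to 2.16% in Srebf1 KO livers. Apoc1 was 3.39 ± 0.750 times Apoc2 in Bcl6 KO livers and 10.7 ± 1.47 times in Irs1 KO livers, against 4.44 ± 1.65 times in control livers. The Irs1 KO livers, at 9.26 to 12.7 times, did not overlap the control livers at 1.99 to 7.02 times. Apoa1 was 4.80 ± 1.75 times Apoa4 in Bcl6 KO livers and 8.0 ± 1.95 times in Irs1 KO livers, against 2.04 ± 0.512 times in control livers.

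**Figure D4:**
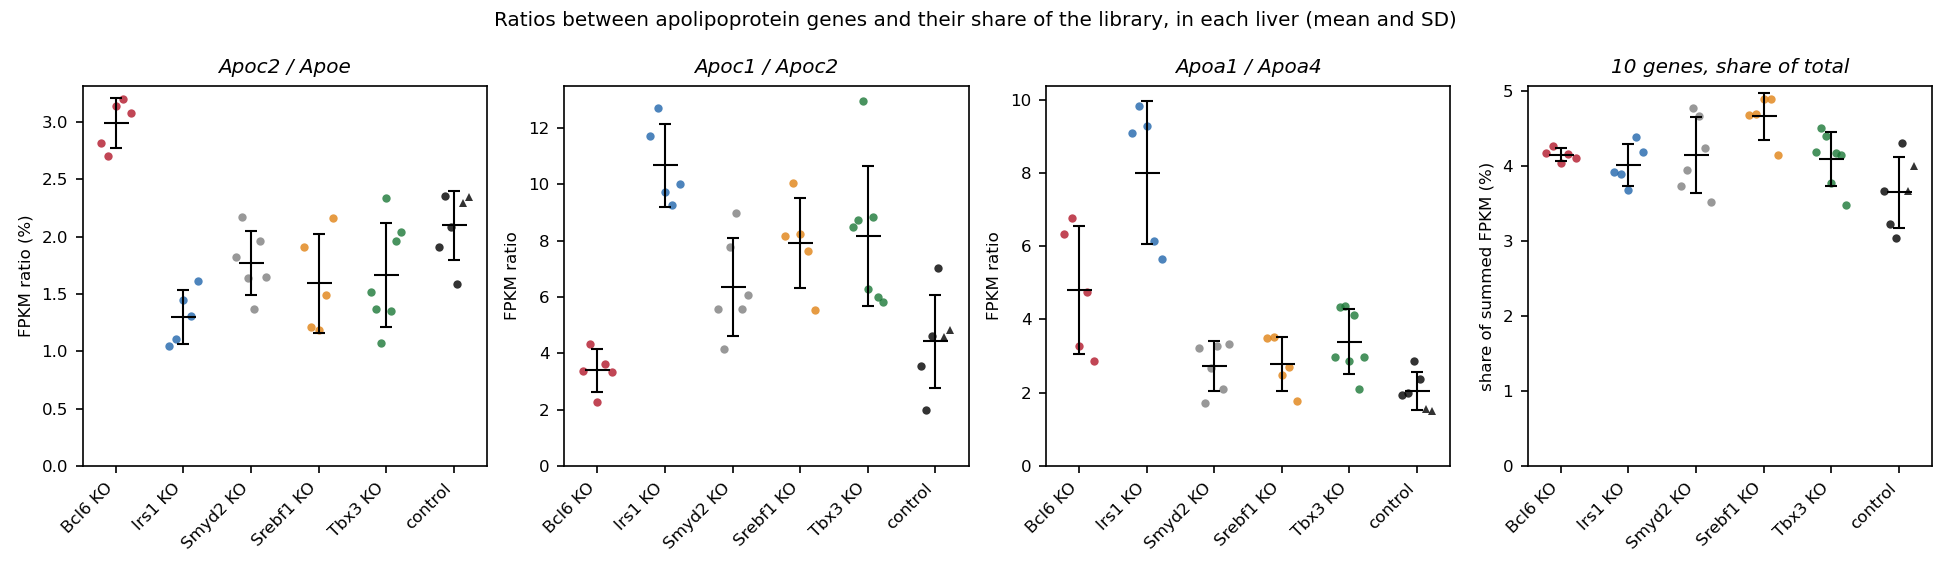
Ratios of FPKM between apolipoprotein genes, and the share of the 10 genes in the summed FPKM, in each liver with group mean and SD and sgLacZ controls as triangles. Apoc2 over Apoe is highest in Bcl6 KO livers (2.99% on average) and lowest in Irs1 KO livers (1.30%), against 2.10% in control livers.

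Genes that act on the particles were counted in fixed lists, and no list was tested as a set. For this list and those that follow, the share of all genes called was 6.14% in Bcl6 KO, 10.9% in Irs1 KO and 0% in Smyd2 KO. It was 0.378% in Srebf1 KO and 2.54% in Tbx3 KO. Among 8 genes of plasma lipases and their regulators, 3 were called lower in Bcl6 KO, 1 higher in Irs1 KO and none in Smyd2 KO or Srebf1 KO livers. Lipc, hepatic lipase, stood at 223, 280.1, 309, 231 and 432 FPKM in Bcl6 KO livers and at 934, 907, 830.0, 985 and 831 FPKM in Irs1 KO livers, against 451 to 633 FPKM in control livers. It fell by 0.98 in Bcl6 KO (SE 0.16, limma adjusted p = 7.58e-05) and rose by 0.66 in Irs1 KO (SE 0.16, limma adjusted p = 0.0079), with no overlap with control livers in either. The difference between Bcl6 KO and Irs1 KO was -1.64 (limma adjusted p = 1.04e-08). Lipg, endothelial lipase, averaged 27.4 ± 11.7 FPKM in Bcl6 KO against 99.4 ± 39.7 FPKM in control livers (limma adjusted p = 6.44e-05), and Angptl4, a lipase inhibitor, 73.8 ± 24.3 against 120.0 ± 16.7 FPKM in the same groups (limma adjusted p = 0.0119).

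Of 7 genes of HDL lipidation and remodelling, 1 was higher in Bcl6 KO, 2 were higher and 2 lower in Irs1 KO, and 1 was higher in Tbx3 KO livers. Lcat, the enzyme that apoA-I activates, averaged 279.7 ± 40.2 FPKM in Bcl6 KO, 210.3 ± 20.5 in Irs1 KO and 193 ± 24.0 FPKM in Tbx3 KO livers, against 146 ± 32.1 FPKM in control livers (limma adjusted p = 1.79e-06, 0.00461 and 0.0429). Pltp, which transfers phospholipid between particles, averaged 24.0 ± 6.44 FPKM in Irs1 KO against 71.3 ± 19.6 FPKM in control livers (limma adjusted p = 9.34e-05). Scarb1, the HDL receptor, rose by 0.54 in Irs1 KO (limma adjusted p = 0.011).

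Of 17 receptor and uptake genes tested, 3 were higher in Bcl6 KO, 1 was higher and 5 lower in Irs1 KO, and 2 were lower in Tbx3 KO livers. Vldlr, the VLDL receptor, averaged 4.32 ± 2.34 FPKM in Tbx3 KO against 41.3 ± 7.09 FPKM in control livers (-3.08, limma adjusted p = 2.56e-07). Cd36, a fatty acid transporter, averaged 1050.0 ± 372 FPKM in Irs1 KO against 2968 ± 381 FPKM in control livers (limma adjusted p = 2.82e-06). Lrp1, a receptor for apoE-bearing remnants, rose by 0.40 in Bcl6 KO and 0.45 in Irs1 KO (limma adjusted p = 0.0013 and 0.000555), and Sdc1, a heparan sulfate proteoglycan that takes up remnants, by 1.07 in Bcl6 KO (1.87e-05). Of 15 genes of apoB particle assembly, Tm6sf2 was higher in Bcl6 KO by 1.09 (limma adjusted p = 0.00169), Cideb was lower there (-0.33, 0.0436), and P4hb, a subunit of the microsomal transfer complex that loads apoB, was higher in livers labelled Srebf1 KO by 0.38 (0.0303). No gene of that list was called in the other 3 groups.

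Among 16 other apolipoproteins and particle-bound proteins tested, 2 were higher in Bcl6 KO, 4 in Irs1 KO and 3 in Tbx3 KO livers, and none lower. Apof averaged 729 ± 44.6 FPKM in Bcl6 KO and 666 ± 66.2 in Tbx3 KO livers, against 469 ± 46.4 FPKM in control livers (limma adjusted p = 3.1e-05 and 0.00118). Saa4, a serum amyloid A carried on HDL, rose by 1.20 in Irs1 KO (limma adjusted p = 0.00632). Of 25 transcription regulators of these genes, 2 were higher in Bcl6 KO, 7 higher and 1 lower in Irs1 KO and 3 higher in Tbx3 KO livers. In these groups 6.14%, 10.9% and 2.54% of all genes were called, and 12.4%, 17.8% and 5.36% of genes with a mean of at least 100 FPKM. The Bcl6 KO count is near these shares. Hnf4a, a nuclear receptor that drives many apolipoprotein genes, averaged 1904 ± 196 FPKM in Bcl6 KO, 2006 ± 79.7 in Irs1 KO and 1823 ± 163 FPKM in Tbx3 KO livers, against 1418 ± 129 FPKM in control livers (limma adjusted p = 0.000369, 9.64e-05 and 0.00341). Hnf4a is also 1 of the 14 hepatocyte markers. Esr1, the estrogen receptor, averaged 742 ± 143 FPKM in Bcl6 KO against 232 ± 115 FPKM in control livers (limma adjusted p = 7.53e-06).

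**Figure D5:**
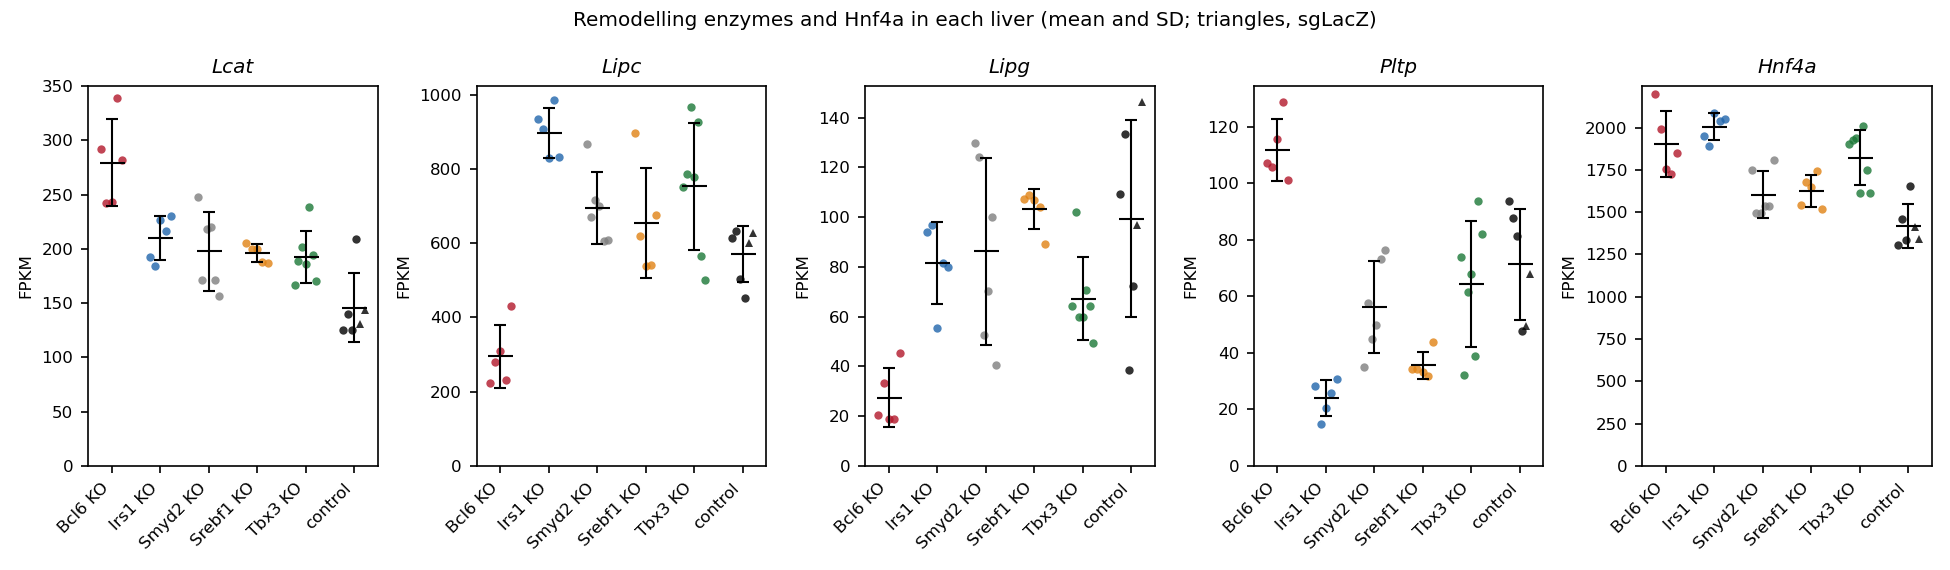
FPKM of Lcat, Lipc, Lipg, Pltp and Hnf4a in each liver with group mean and SD, sgLacZ controls as triangles. Lipc averages 295 FPKM in Bcl6 KO and 897 FPKM in Irs1 KO livers, on either side of the 572 FPKM of control livers.

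For the 3 genes whose group means spanned 1 or more on the log2 scale, the other genes most alike over the 6 groups were found by the root mean square difference of centred group means, among 11419 genes. Nearest to Apoc2 were Bche (0.04) and Tfcp2l1 (0.06), nearest to Apoa4 were Grhl1 (0.09) and Enc1 (0.10), and nearest to Apom were Lepr (0.19) and Itih3 (0.20). The groups share their libraries across genes, and these are descriptions of 6 points.

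The control guides were compared with each other, 4 sgGFP against 2 sgLacZ livers. Limma called 0 of the 10 genes and 0.0104% of all genes, while 1 member, Apoc3, had an unadjusted p under 0.05, as did 6.68% of all genes. Apoc3 averaged 2638 ± 541 FPKM in sgGFP livers and 3741 ± 240 FPKM in sgLacZ livers (limma adjusted p = 0.582). Apoa2, Apoa4 and Apoc1 had differences of -0.56, -0.56 and -0.53 between sgGFP and sgLacZ on the log2 scale, none called. With 2 sgLacZ livers, the lack of a call does not show that the control guides are alike.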

How the data were processed

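Per the labels' protocols, liver RNA was prepared with TRIzol and RNeasy, and a SMARTer kit for stranded total RNA made the libraries. The authors deposited FPKM (fragments per kilobase of transcript and per total of the library) for 35976 symbols in 34 libraries. Counting used featureCounts 1.6.4, and builds mm10 and GRCh38 appear without a role, per the submitters' processing notes. Not given in the sources used here are the aligner, annotation, transcript lengths and strand setting. Columns summed to 2790000 to 3090000 FPKM. Depth was implied from values on steps of 1 to 3 reads in genes with 1 transcript (150 to 362 genes a library within 0.004 of a step, at least 2.03 times as many as at any other scale).

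From these values, limma 3.58.1 (R 4.3.3, eBayes with trend) was run on log2(FPKM + 1) for the 19295 genes that reached 1 FPKM in 5 or more libraries. A single model held all 34 livers, with 6 levels and with sgGFP and sgLacZ pooled. P-values are two-sided, adjusted by Benjamini-Hochberg over all genes, with a threshold of 0.05. SEs of log2 changes had medians of 0.24 to 0.26. The fit was tested on simulated data. Alternatives were a pseudocount of 0.1, no filter or a filter at 10 FPKM, median scaling, quantile normalization, a replicate block, array weights, sgGFP alone as control, fits of 1 knockout and control, and leaving out each liver. Named were all 10 members, the targeted genes, up to 3 called genes per list and comparison by smallest adjusted p, and the nearest 2 genes by group pattern. The share called among genes with a mean of at least 100 FPKM was added after seeing the data. The members and lists were chosen with earlier results of these data known. A result for 1 gene outside the members is not reported here.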

Additional observations from a re-analysis of the deposited data

Results flagged for a closer look

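In 3 of 60 combinations of a gene and a group, 1 liver stood far from the rest of its group, by a gap test with a critical value that chance passes in about 1 of 20 groups. Apoa2 was at 27867 FPKM in the library labelled Srebf1 KO replicate 1, with the next liver at 19873. This is also the library whose Srebf1 mRNA was in the control range. Apoa2 was lowest in Tbx3 KO replicate 7 at 12559 FPKM, with the next liver at 21571. Apom was highest in Tbx3 KO replicate 4 at 146 FPKM, with the next at 105. The cause was not tested.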

How the results depend on the processing

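The counts of apolipoprotein genes called in Irs1 KO (5) and Smyd2 KO (0), of those differing among the 5 knockouts (3) and of those called between control guides (0) kept within 1.5 times under the alternatives run. In Bcl6 KO the count of 4 ran from 2 to 5 when 1 liver was left out, with 2 without Bcl6 KO replicate 1 or 4. In Srebf1 KO the count of 1 was 2 with the filter at 10 FPKM and 0 in the fit of the knockout and control livers alone, and 0 to 2 when 1 liver was left out. In Tbx3 KO the count of 1 was 2 with the filter at 10 FPKM, 2 under median scaling, 0 under quantile normalization, 0 with array weights and 0 in the fit of the knockout and control livers alone, and 0 to 3 when 1 liver was left out, with 3 without Tbx3 KO replicate 7. With the replicate number as a block the Tbx3 KO count was 3, and all genes called in Tbx3 KO numbered 490 in the deposited scaling, 1471 without replicate 7 and 1931 with the block. Under the block the other 4 member counts against control were unchanged, but in Bcl6 KO Apoa1 lost its call and Apoa2 gained one. Over 83 same-numbered pairs of different groups the deviations from group means correlated at -0.255 to 0.162 (median -0.004), with 3 pairs over 0.1. The median over differently numbered livers of different groups was 0.003. Whether the number marks a pairing or a batch is not stated in the labels and was not tested. The count of 18 calls between knockouts ran from 12 to 18 when 1 liver was left out. Over the 15 single-gene results against control that were called in the deposited scaling or in some alternative, 257 alternative values kept direction and side of the threshold, 35 lost the call, 14 gained one and 0 reversed; the cause was not tested. Quantile normalization gives the most abundant symbol of every library the same value, and Apoe was that symbol in 24 of 34 livers. The comparison of control guides under a pseudocount of 0.1, median scaling and quantile normalization was chosen after seeing the data, and it called 0 members each time. At 2110000 to 3120000 reads a library, Apom was the member with fewest reads.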
